A study of Mus musculus with 18 samples.

Results

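The genes described here are 10 that had no or almost no reads in the P248L line before IL-3 and clear expression in the wild-type line, out of 23329 genes in the count files. They are Lonrf3, Svil, Maoa, Hpgd, Gphn, Fpgt, Arhgap12, Chchd10, Rnf217 and Fam135a. The untreated counts of both lines chose them, so every untreated value of a member is a description without a test, and tests between the untreated lines are given only for other genes. The choice set no numeric threshold. Svil and Gphn, with 1 read each, were the members with any untreated P248L read, and the nearest genes left out included Cpped1, at a counts-per-million (CPM) level of 13 in untreated wild-type cells and 0 reads in P248L, and Mtus2, at 17.8 CPM and 1 read over all 9 P248L libraries. What the choice did not use is the level of each gene in either line after 2 and 5 days of IL-3, the genes beside the members on the chromosomes, their relatives and pathway partners, and the reads of the other strand.

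The cells were FDH cells, immortalised cells made from the liver of BALB/c mouse fetuses (E14.5) of the background bc-/- bIL-3-/-, which lack the shared beta chains of the IL-3 receptor. Both lines were transduced with bc, and also with wild-type IL3Ra in one and with IL3Ra P248L in the other. IL3Ra is the chain that binds IL-3, a cytokine that drives growth and differentiation of myeloid progenitors. Untreated cells (3 libraries per line) grew with doxycycline and 100 ng/ml mouse SCF, and the 4 other groups, also of 3 libraries each, were washed and kept for 2 or 5 days with 100 ng/ml IL-3, in medium described without doxycycline or SCF. The cells were at passages 10 to 12. Each receptor was represented by 1 line, so receptor and line cannot be told apart, and the labels do not say whether the replicates were separate cultures, so a p-value may measure technical spread only.

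The members lay on 7 chromosomes. On RefSeq's GRCm38.p6 annotation Lonrf3 and Maoa were on chromosome X (36328358 to 36366857 and 16619698 to 16687812), Svil and Arhgap12 on chromosome 18 (4920467 to 5119293 and 6024448 to 6136098) and Chchd10 and Rnf217 on chromosome 10 (75933130 to 75937750 and 31501887 to 31609725). Hpgd was on chromosome 8 (56294552 to 56321046), Gphn on 12 (78217325 to 78684772), Fpgt on 3 (155084915 to 155093387) and Fam135a on 1 (24010758 to 24100484). The genes spanned from 4.62 kb for Chchd10 to 467 kb for Gphn, and the counts are reads over annotated genes, with no separate value per exon or transcript.

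The members share no single pathway by their known roles. Maoa is the mitochondrial outer membrane enzyme that oxidises serotonin and catecholamines, and Chchd10 is a small protein of the mitochondrial intermembrane space. Hpgd (15-hydroxyprostaglandin dehydrogenase) inactivates prostaglandins, Gphn (gephyrin) makes the last steps of the molybdenum cofactor and anchors inhibitory receptors at synapses, and Fpgt joins fucose-1-phosphate to GDP in the fucose salvage route. Svil (supervillin) ties the actin and myosin cytoskeleton to membranes, and Arhgap12 is a GTPase-activating protein. Lonrf3 and Rnf217 carry RING-type domains of ubiquitin ligases, and Fam135a is little described.

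The promoters of the members differed from each other in CG content. RefSeq's promoter table (GRCm38.p6), which covers 250 bases before to 50 after a transcription start it lists, held 7 of the 10 members. For Chchd10, Hpgd, Maoa and Rnf217 that start is the edge of the gene as given above, whereas it lies inside the gene for Lonrf3 (51 bases from the edge), Fam135a (143 bases) and Gphn (9330 bases), so that for Gphn the window is that of a start well within the annotated span. For 4 of them the sequence is printed, each 5' to 3' with every CG in capitals. They are the window richest and the one poorest in CG and the pair that holds the letters TATAAA on either strand.
Gphn, chr12:78226405-78226704, strand +: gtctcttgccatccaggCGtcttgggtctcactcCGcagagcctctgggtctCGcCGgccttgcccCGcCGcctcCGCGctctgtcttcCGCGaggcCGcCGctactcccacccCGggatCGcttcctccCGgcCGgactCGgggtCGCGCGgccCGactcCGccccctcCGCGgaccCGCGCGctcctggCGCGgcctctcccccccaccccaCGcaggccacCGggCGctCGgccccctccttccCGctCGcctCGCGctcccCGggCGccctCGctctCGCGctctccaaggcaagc
Chchd10, chr10:75932880-75933179, strand +: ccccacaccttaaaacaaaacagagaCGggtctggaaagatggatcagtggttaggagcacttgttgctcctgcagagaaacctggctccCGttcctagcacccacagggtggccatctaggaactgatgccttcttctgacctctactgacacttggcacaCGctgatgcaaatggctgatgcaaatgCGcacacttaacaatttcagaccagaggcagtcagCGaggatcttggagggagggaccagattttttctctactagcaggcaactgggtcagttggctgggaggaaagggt
Lonrf3, chrX:36328159-36328458, strand +: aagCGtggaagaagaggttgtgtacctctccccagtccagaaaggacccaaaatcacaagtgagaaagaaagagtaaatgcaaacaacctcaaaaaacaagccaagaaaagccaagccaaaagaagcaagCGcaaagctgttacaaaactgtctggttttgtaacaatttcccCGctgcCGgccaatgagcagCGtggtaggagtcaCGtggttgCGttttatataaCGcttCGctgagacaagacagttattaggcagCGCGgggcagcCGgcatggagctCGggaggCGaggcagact
Hpgd, chr8:56294302-56294601, strand +: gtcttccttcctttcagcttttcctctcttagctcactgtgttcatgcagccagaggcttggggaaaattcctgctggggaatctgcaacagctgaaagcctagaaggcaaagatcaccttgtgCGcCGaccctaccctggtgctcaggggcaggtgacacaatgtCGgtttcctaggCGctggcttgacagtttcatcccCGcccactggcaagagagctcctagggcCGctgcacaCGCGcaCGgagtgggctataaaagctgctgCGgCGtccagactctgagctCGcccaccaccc
CG occurred 42 times in the Gphn window, 29 in Fam135a, 16 in Rnf217, 14 in Lonrf3, 14 in Maoa, 12 in Hpgd and 5 in Chchd10. The median of these 7 was 14, beside 21 over the 8580 tested genes in the table and 7 over all 27025 promoters. Of the tested genes 8.89% had fewer CG than Chchd10 and 94.5% had fewer than Gphn. The letters TATAAA, the core of a TATA box, searched on both strands as were the next 3, occurred in Lonrf3 and Hpgd, and in 7.03% of tested genes. In Hpgd the match was on the strand of the gene. In Lonrf3 it was on the opposite strand, so that the printed sequence reads TTTATA there. GGGCGG, the GC box, which itself contains a CG, occurred in 4 of the 7 members and 64.1% of tested genes, and CACGTG, an E box that also contains a CG, in Lonrf3 and 10.5%. TTCNNNGAA, the pattern that STAT factors recognise, was in 0 of the 7 windows and 7.13% of tested genes. These are letter matches in short windows, and the data hold no measurement of binding or of DNA methylation.

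Libraries held 13844612 to 27181962 reads in genes, so that 1 read was worth 0.0328 to 0.0767 CPM in P248L libraries. P248L untreated library 1 and day 2 library 3 stood apart from the other libraries of their groups in the spread of counts over all genes. Of the cells that fetal liver holds, those of the blood-forming lineage were seen by their markers: untreated cells of both lines had Kit, the SCF receptor (353 ± 18.2 CPM in wild-type and 305 ± 67.5 in P248L, SD, n = 3). The untreated lines were not alike in all such markers. By edgeR's quasi-likelihood test Runx1 was lower in P248L (log2 fold change -1.07 ± 0.13, SE, adjusted p = 8.2e-06). Cd34 was higher (0.63 ± 0.13, adjusted p = 0.0019), and Ptprc, Kit, Flt3 and Myb did not pass. Of 6 hepatocyte genes Alb and Ttr had 0 reads in all 18 libraries and Serpina1a, Fgb and Apoa1 had 1, 3 and 7. Afp, alpha-fetoprotein, was the exception with 1187 reads, at 13.9 ± 0.487 CPM in wild-type and 1.03 ± 0.202 in P248L at day 2 (log2 fold change -3.74 ± 0.32, adjusted p = 4.2e-08 by edgeR's quasi-likelihood test). Reads of the Y-linked genes Kdm5d, Uty, Ddx3y and Eif2s3y summed to 4392 to 9413 per library in both lines, and Xist had 0 to 2 reads, so both lines showed the pattern of male cells. By the same test Kdm5d and Ddx3y were lower in untreated P248L (-1.0 ± 0.22 and -0.76 ± 0.20, adjusted p = 0.0033 and 0.013). Uty and Eif2s3y did not pass there. At day 2 Ddx3y was again lower in P248L (-0.59 ± 0.20, adjusted p = 0.03) and the others did not pass. None of these Y-linked genes passed at day 5. In bulk RNA, fewer cells expressing a gene and less RNA per cell cannot be told apart.

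Over the 9 P248L libraries the 10 members had 19 reads in all, against 64134 in the 9 wild-type libraries. Chchd10, Rnf217 and Fam135a had no read in any P248L library. Of the 90 pairs of a member and a P248L library 77 held 0 reads, and the highest single value was 4 reads, of Maoa in day 2 library 1. That library held 9 of the 19 reads. Untreated P248L cells had 2 of the 19, 1 of Svil and 1 of Gphn, both in library 2. The 2 libraries that stood apart held 0 and 2 member reads, and the other P248L libraries 0 to 9. The members therefore stayed near 0 in P248L cells through 5 days of IL-3, in each library.

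**Figure D1:**
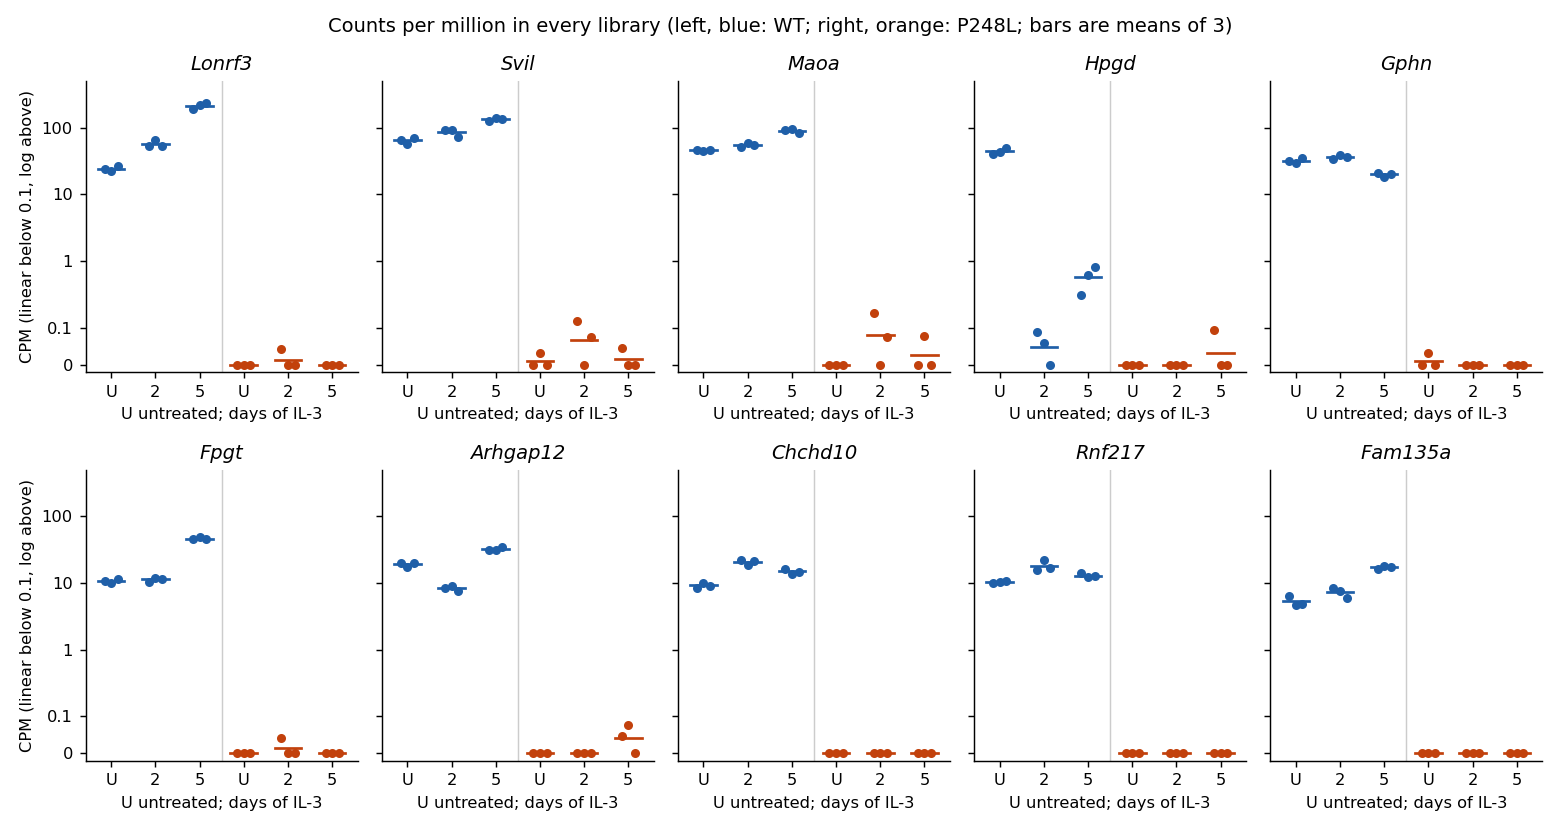
CPM of each member in each of the 18 libraries (points) with the mean of 3 (bars), by line and time; the axis is linear below 0.1 and logarithmic above. Wild-type libraries lie between 4.60 and 233 CPM except for Hpgd after IL-3, and no P248L library is above 0.165 CPM.

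Maoa in wild-type libraries 1 to 3 was at 45.5, 45.1 and 45.6 CPM untreated, 51.1, 59.0 and 54.6 on day 2 and 90.7, 94.6 and 82.8 on day 5. In P248L it had no untreated read, 4, 0 and 1 reads on day 2 and 0, 1 and 0 on day 5. No P248L library came near a wild-type one at any time. Untreated wild-type cells were thus at least 1100-fold higher, from a floor of 3 reads over a P248L group at 0, and day 5 cells 4540-fold higher (95% counting interval 814 to 179000, on 1 P248L read). At day 2, with 5 reads in P248L, the log2 fold change of P248L over wild-type was -9.13 ± 0.32 (SE; adjusted p = 6.8e-12, edgeR's quasi-likelihood test with Benjamini-Hochberg adjustment, as for every adjusted p here). Wild-type was 589-fold higher there, with a counting interval of 252 to 1820, which is wider than that SE implies. Counting intervals and floors cover counting error only, since reads are not independent molecules.

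Chchd10 stood at 8.45, 9.98 and 9.14 CPM in the 3 untreated wild-type libraries, 21.8, 18.4 and 21.3 on day 2 and 16.3, 13.8 and 14.4 on day 5. With 0 reads in all 9 P248L libraries the wild-type level was at least 224-fold higher untreated, 371-fold at day 2 and 250-fold at day 5. Both mitochondrial members were thus read in every wild-type library and in few or no P248L libraries.

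Hpgd differed from the other 9 members in its wild-type course. It was at 40.4, 43.1 and 49.1 CPM untreated, but at 2, 1 and 0 reads at day 2 and 5, 11 and 12 reads (0.582 ± 0.259 CPM, SD, n = 3) at day 5. Untreated wild-type cells were 878-fold above day 2 (counting interval 300 to 4260) and 77.0-fold above day 5 (53.2 to 116). P248L libraries had 0 reads at the first 2 times and 2, 0 and 0 at day 5. At day 2 the lines therefore overlapped, with 3 and 0 reads, and no fold is given (adjusted p = 0.15). At day 5 the wild-type level was 14.54-fold higher (3.67 to 126; adjusted p = 0.001) and the libraries did not overlap. Hpgd is thus the one member for which the wild-type line after IL-3 approached the P248L line.

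Gphn was at 31.8, 29.4 and 34.7 CPM in untreated wild-type cells, 34.2, 38.8 and 35.8 on day 2 and 21.1, 18.3 and 20.5 on day 5. P248L had 1 read, in untreated library 2. The wild-type level was 2320-fold higher untreated (416 to 91600), at least 650-fold at day 2 and at least 335-fold at day 5.

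Fpgt was at 10.9, 9.98 and 11.4 CPM untreated and 10.3, 11.9 and 11.6 at day 2, and at 45.6, 48.7 and 45.0 at day 5 in wild-type cells. Its single P248L read was in day 2 library 1. Wild-type cells were at least 260-fold higher untreated, 604-fold at day 2 (108 to 23900) and at least 785-fold at day 5. The level of this fucose salvage enzyme in wild-type cells was therefore similar before IL-3 and at day 2 and higher at day 5.

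Svil was at 65.4, 57.6 and 69.6 CPM in untreated wild-type libraries, 90.8, 92.9 and 72.6 on day 2 and 126, 139 and 134 on day 5. P248L libraries had 0, 1 and 0 reads, then 3, 0 and 1, then 1, 0 and 0. The wild-type level was 4650-fold higher untreated (834 to 184000), 1160-fold at day 2 (451 to 4240) and 6740-fold at day 5 (1210 to 266000). At day 2 the log2 fold change of P248L over wild-type was -10.06 ± 0.31 (SE; adjusted p = 6.6e-13), an SE narrower than the counting interval. The other cytoskeletal member, Arhgap12, was at 19.7, 17.4 and 19.8 CPM untreated, 8.54, 9.12 and 7.57 on day 2 and 31.4, 31.3 and 34.4 on day 5 in wild-type cells. It had 1, 1 and 0 reads in P248L at day 5 and 0 in the other 6 P248L libraries. Wild-type was at least 458-fold and at least 151-fold higher untreated and at day 2, and 816-fold at day 5 (225 to 6740). Svil and Arhgap12, the pair on chromosome 18, thus followed different courses in wild-type cells and were both near 0 in P248L cells.

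Lonrf3 stood 8.78-fold higher at day 5 than before IL-3 in wild-type cells. It was at 24.2, 22.6 and 26.3 CPM untreated, 53.3, 64.6 and 53.3 on day 2 and 192, 216 and 233 on day 5. P248L libraries held 1 read in all, in day 2 library 1. Wild-type was at least 588-fold higher untreated, 3060-fold at day 2 (549 to 121000) and at least 3590-fold at day 5. Rnf217 was at 10.1, 10.5 and 10.9 CPM untreated, 15.8, 22.1 and 17.0 on day 2 and 13.9, 12.3 and 12.7 on day 5, and had no P248L read, which put wild-type at least 255-fold, 325-fold and 218-fold higher. Fam135a was at 6.37, 4.60 and 4.88 CPM untreated, 8.50, 7.46 and 6.06 on day 2 and 16.3, 18 and 17.3 on day 5, again with no P248L read. Wild-type was at least 126-fold, 133-fold and 290-fold higher for it. For those 3 genes the libraries of the lines did not overlap at day 2 or day 5, while the untreated separation followed from the choice of the members. The same held for every other member except Hpgd, which overlapped at day 2. The share of all tested genes without such overlap is not given here.

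The members were compared between the lines by test only after IL-3. At day 2, 9 of the 10 members were lower in P248L, all but Hpgd, with adjusted p from 6.6e-13 to 1.9e-08. At that time 20.3% of the 11942 tested genes were lower in P248L. At day 5 all 10 were lower, with 22.7% lower among tested genes, and the largest adjusted p was that of Hpgd. No member was higher in P248L at either time, where 15.5% and 22.8% of tested genes were. The members were chosen on the untreated libraries of the same 2 lines, and they passed the filter on low counts through their wild-type reads, so these counts describe the members and support nothing further. Untreated, 11.3% of tested genes were called lower in P248L. Markers of other cells differed between the lines as well. Of 28 such markers, for hepatocytes, erythroid, endothelial, stromal and mast cells and megakaryocytes, 9 were tested. Untreated, Cma1 was lower in P248L (-0.94 ± 0.32, adjusted p = 0.044) and Epor and Pf4 were higher (1.74 ± 0.51 and 1.13 ± 0.35, adjusted p = 0.023 and 0.029), at day 2 5 were lower, and at day 5 8 were lower and 1 higher. The 4 mast cell markers summed to 498 to 661 CPM in untreated wild-type and 470 to 555 in untreated P248L libraries, and to 2080 to 3070 and 28.1 to 48.7 at day 5, mostly from Cpa3, a carboxypeptidase of mast cell granules, while Mcpt4 and Tpsb2 had 6 and 23 reads over all libraries. The 4 megakaryocyte markers summed to 12.4 to 19.9 and 10.4 to 15.9 CPM untreated, and to 381 to 487 and 84.0 to 111 at day 5. That day 5 sum was mostly Vwf, von Willebrand factor (413 ± 51.4 CPM in wild-type and 74.1 ± 16.2 in P248L), and Pf4, platelet factor 4, went the other way (5.67 ± 2.49 and 17.1 ± 4.05, log2 fold change 1.60 ± 0.32, adjusted p = 5.3e-04). At day 5 the erythroid sum (5 genes) was 8.64 to 9.99 CPM in wild-type and 1.38 to 2.18 in P248L, the endothelial sum (4 genes) 3.54 to 6.31 and 0 to 0.278, almost all from Kdr, and the hepatocyte sum 3.35 to 4.08 and 0.153 to 1.0, while the 5 stromal genes reached no more than 0.114 CPM together. The part of these cells in the members' values was not tested.

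Within the wild-type line every member changed between day 2 and day 5, a comparison that the choice did not use and in which 70.7% of tested genes changed. Lonrf3, Svil, Maoa, Hpgd, Fpgt, Arhgap12 and Fam135a rose, 7 of 10, where 36.0% of tested genes rose. Fpgt and Arhgap12 rose by 2.04 ± 0.16 and 1.94 ± 0.16 on the log2 scale (SE; adjusted p = 3.6e-08 and 9.5e-08) and Lonrf3 by 1.90 ± 0.14 (adjusted p = 3.0e-08). Fam135a rose by 1.23 ± 0.19, Maoa by 0.70 ± 0.17 and Svil by 0.64 ± 0.16. Hpgd rose 11.4-fold from 3 to 28 reads (counting interval 3.52 to 58.6; adjusted p = 4.8e-04), far below its untreated level. Gphn, Chchd10 and Rnf217 fell, 3 of 10 beside 34.7% of tested genes. Gphn fell by 0.86 ± 0.15 on the log2 scale (adjusted p = 1.8e-04). For Chchd10 (-0.46 ± 0.16) and Rnf217 (-0.50 ± 0.17) the adjusted p was 0.02 and the call depended on single libraries: the fall of Chchd10 was lost without any one of wild-type day 2 library 1 or 3 or day 5 library 2 or 3 (adjusted p from 0.055 to 0.075), and that of Rnf217 without day 2 library 2 or day 5 library 2 or 3 (0.054 to 0.093). With DESeq2's size factors, under which the median log2 change of all tested genes was 0.12 rather than 0.02, both were lost (adjusted p = 0.058). With library size alone the median was -0.25, calls split 40.5% higher and 59.5% lower rather than 51.0% and 49.0%, and Svil's rise was lost (0.37, adjusted p = 0.055). The 10 members thus had no common direction of change in the cells that expressed them.

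Within the P248L line a change of the members between day 2 and day 5 was not detectable at this depth, with 0 to 5 reads per group. The members entered this comparison only through their wild-type reads, and 0 of the 10 were tested when the 2 P248L groups were fitted alone. Gphn, Chchd10, Rnf217 and Fam135a had 0 reads at both times, so that no change could be called for them. No member passed the test by edgeR or DESeq2 (0 with an unadjusted p under 0.05 by either) or by limma-voom (1, Arhgap12, adjusted p = 0.063), and leaving out P248L day 5 library 2 made 1 call of a lower member. Of all tested genes 70.2% were called (37.1% rose and 33.1% fell), and nothing is read from the members' count beside that share. The difference between the lines in this change has the same limit and has no usable error for those 4 genes. It was called for 0 members by edgeR and DESeq2, with Maoa the one at an unadjusted p under 0.05 (adjusted p = 0.083 by edgeR), and for Lonrf3 and Fpgt by limma-voom. Of all tested genes 26.9% were called by edgeR, and nothing is read from that comparison either. Leaving out P248L day 2 library 2 or day 5 library 2 made 1 call.

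In wild-type groups with more than 100 reads of a member, reads of the other strand made up 0 to 1.32% of the reads of both strands. P248L cells had such reads at 1 member and time only. In P248L day 5 libraries 1 to 3, 29, 21 and 16 reads (1.32 ± 0.304 CPM, SD, n = 3) fell on the strand opposite to Svil, where the gene's own strand had 1 read. P248L untreated and day 2 libraries had 0 such reads. Wild-type libraries had 10, 15 and 8 untreated, 9, 9 and 9 on day 2 and 22, 45 and 20 on day 5, which at day 5 was 1.75 ± 0.698 CPM and 1.32% of both strands. The day 5 levels of the opposite strand overlapped between the lines while those of the gene's own strand did not. GENCODE M21 annotates 0 genes on the opposite strand within Svil. The other 9 members had 0 other-strand reads in all P248L libraries. When reads of both strands were counted together, Svil was the one member called higher at day 5 than at day 2 in P248L (adjusted p = 2.1e-07).

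Other genes had the same untreated pattern as the members. Of the 9587 genes at 3 CPM or more in untreated wild-type cells, 84 (0.876%) were at 1/20 or less in untreated P248L cells, and these included the 10 members. In the reverse direction it was 13 of 9491 (0.137%). Asked for at most 10 reads over all 9 P248L libraries, 45 genes remained (0.469%), the 10 members and 35 others. Of the 45, 16 had no P248L read at all, among them Chchd10, Rnf217 and Fam135a of the members and Tmem159 and Slc25a43 of the others. The reverse gave 2 (0.0211%). These counts use the measure that chose the members and describe the data only. The 45 genes lay on 16 chromosomes, and 8 of them (17.8%), Lonrf3 and Maoa included, lay on chromosome X, which held 3.17% of the genes at 3 CPM or more.

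**Figure D2:**
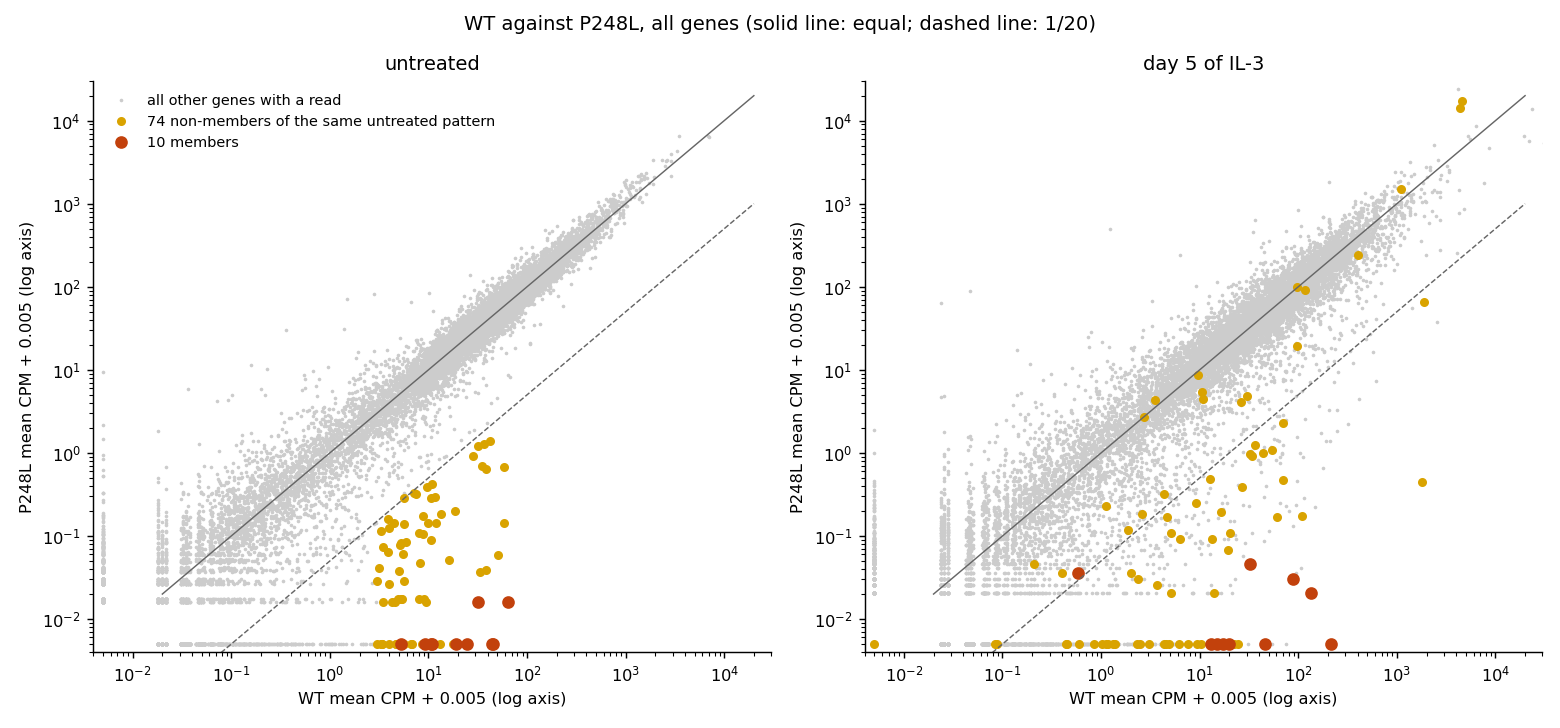
Mean CPM of 3 libraries in wild-type (x axis) and P248L (y axis), both plus 0.005 on log axes, for untreated cells (left) and day 5 (right); the solid line marks equal levels and the dashed line 1/20. The 10 members (orange) stay at the foot of the day 5 panel, while part of the 74 other genes of the untreated pattern (yellow) lies near the line of equal levels there.

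After IL-3 the other genes of the untreated pattern parted from the members in some cases. Of the 74, 52 were at 3 CPM or more in wild-type at day 5, and 38 of these were still at 1/20 or less in P248L while 14 were above it. At day 2 it was 51 of 54. Among the 10 of highest untreated wild-type level, S100a9, a calcium-binding protein of neutrophils, went from 36.6 ± 7.89 CPM in wild-type and 1.29 ± 0.943 in P248L untreated to 4530 ± 1220 and 17000 ± 3450 at day 5 (SD, n = 3), and S100a8, its partner, from 31.7 and 1.20 to 4370 and 14000. Sort1, the sorting receptor sortilin, went from 38.5 ± 9.14 and 0.628 ± 0.214 to 408 ± 30.9 and 242 ± 63.0. The other 7 stayed at 1/20 or less. Cd24a, a surface glycoprotein of blood progenitors, was at 1780 ± 101 CPM in wild-type and 0.444 ± 0.180 in P248L at day 5, and Camk1, a calcium and calmodulin-dependent kinase, at 109 and 0.170. Glis2 and Poc1b were at 26.6 and 36.6 CPM in wild-type and at 0.382 and 1.23 in P248L, and B230118H07Rik and 2610305D13Rik at 20.5 and 19.2 against 0.102 and 0.0619. Over the 9 P248L libraries Poc1b had 224 reads, Glis2 88, Cd24a 49, B230118H07Rik and Camk1 15 each and 2610305D13Rik 8. No member had more than 6. With the 35 other genes at 10 such reads or fewer, so low a number of P248L reads was not particular to the members.

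The genes whose log2 CPM over the 18 libraries was most like the members' mean profile were Slc25a43, a mitochondrial carrier (Pearson's r = 0.999), Tmem159 (0.998), AU041133 (0.998), Zfp551 (0.998) and C330018D20Rik (0.997). The 18 points fall into 2 clusters, the lines, so r mainly records that separation. C330018D20Rik had 1 read over the P248L libraries and the other 4 had 0. In wild-type Tmem159 was at 10.2, 9.53 and 17.3 CPM untreated, at day 2 and at day 5, and Slc25a43 at 3.41, 3.08 and 4.32.

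The nearest genes on the chromosomes were mostly read in both lines. The 3 nearest tested genes on each side of each member made 56 different genes. They lay from 8 bases (Lrriq3 from Fpgt) to 12500 kb (Wdr44 from Lonrf3) from a member. No tested gene on the lower side of Maoa was closer than 2770 kb (Cask), and none on the higher side of Rnf217 closer than 2310 kb (Zufsp). The counts below therefore include genes outside the close surroundings of the members. In untreated cells 6 were lower and 6 higher in P248L (10.7% each, beside 11.3% and 10.3% of tested genes), at day 2 10 and 12 (17.9% and 21.4%, beside 20.3% and 15.5%) and at day 5 12 and 9 (21.4% and 16.1%, beside 22.7% and 22.8%). Their median log2 fold change was -0.09, 0.10 and 0.05, and that of all tested genes -0.01, 0.00 and 0.02. With library size alone as the scale the day 5 counts were 11 lower and 13 higher. Without the 2 P248L libraries that stood apart they were 15 and 12 on day 2 and 14 and 13 on day 5. The shares of neighbours that differed were thus close to those of all genes.

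Single pairs show how near an expressed gene could lie. Smarcb1, a subunit of the SWI/SNF chromatin remodeller 11.5 kb from Chchd10, was at 62.5 ± 6.94 CPM in wild-type and 68.1 ± 12.8 in P248L untreated cells, and 33.7 and 35.9 at day 5 (log2 fold change 0.09 ± 0.14, adjusted p = 0.62). The gene 1110058L19Rik, 5.12 kb from Fam135a, was at 17.0 ± 5.18 and 21.9 ± 4.69 CPM untreated. Kif5b, a kinesin motor 64.9 kb from Arhgap12, was at 243 ± 39.5 and 233 ± 12.6 CPM untreated. Between Svil and Arhgap12 lay Zfp438 and Zeb1, a zinc finger repressor, and both were read in both lines. Zeb1 was at 15.3 ± 1.30 in wild-type and 21.8 ± 4.64 CPM in P248L untreated, and was higher in P248L at day 5 by 1.21 ± 0.18 on the log2 scale (adjusted p = 2.4e-05). The pair on chromosome 18 was therefore not 1 continuous stretch of genes near 0. Mpp5, 64.1 kb from Gphn, did not pass the test at any time (adjusted p from 0.11 to 0.20).

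Neighbours at 1/20 or less in P248L were found beside 2 members, Lonrf3 and Fpgt. Slc25a43 lay 377 kb from Lonrf3, and had 69, 84 and 80 reads in untreated wild-type libraries and 0 in all 9 P248L libraries, at least 82.5-fold, 56.0-fold and 73.0-fold higher in wild-type at the 3 times. Between them Pgrmc1, a haem-binding membrane protein, was at 69.9 ± 8.28 and 96.4 ± 7.44 CPM untreated, and Akap17b at 8.15 ± 0.901 and 6.71 ± 0.461. Lrriq3 starts 8 bases from Fpgt and is transcribed in the opposite direction. It had 10, 4 and 47 reads in wild-type untreated, day 2 and day 5 groups and 0 in each P248L group, so wild-type was at least 16.3-fold higher at day 5. Tnni3k, a kinase 29.5 kb downstream of Fpgt on the same strand, had 0 reads untreated in both lines, and at day 5 141, 161 and 131 reads in wild-type and 2, 1 and 1 in P248L, a 112-fold difference (43.6 to 414). Fpgt and the gene on each side of it were thus all near 0 in P248L at day 5.

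The remaining neighbours that passed the test at both day 2 and day 5 moved in various directions. Cask, a scaffold kinase, was higher in P248L at both times (1.08 ± 0.16 and 1.18 ± 0.16 on the log2 scale). Gpr34, a receptor of myeloid cells, was lower at day 2 (-3.89 ± 0.26) and higher at day 5 (0.50 ± 0.19), and Fut8, a fucosyltransferase, higher at day 2 (0.70 ± 0.16) and lower at day 5 (-1.58 ± 0.16). Aga, Atp6v1d, Prmt2, Dip2a and Lmbrd1 were lower at both times, with log2 fold changes at day 5 of -0.86, -0.81, -1.31, -1.08 and -1.08.

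**Figure D3:**
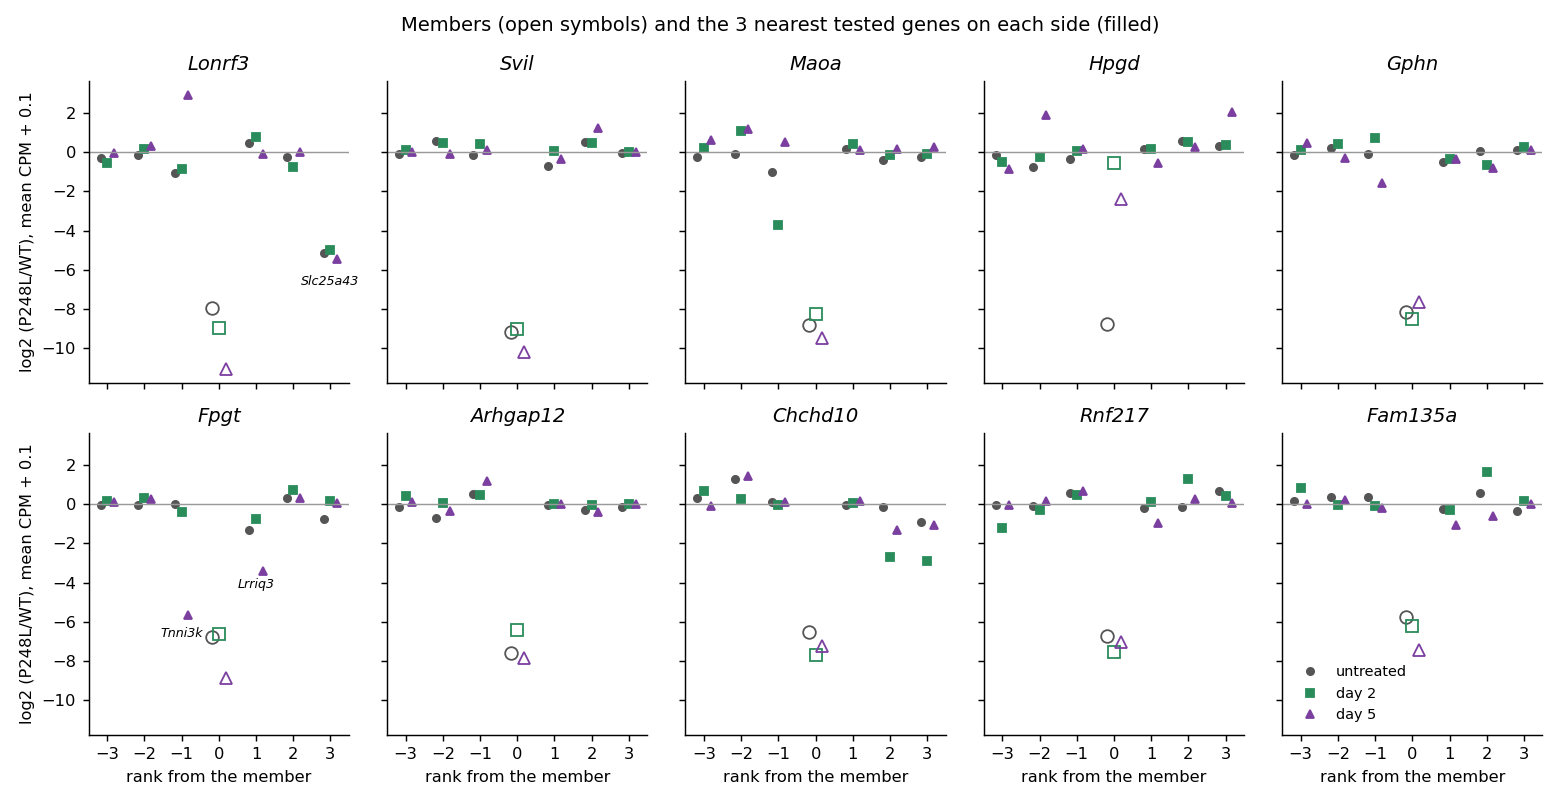
The log2 ratio of P248L to wild-type mean CPM (plus 0.1) for each member (open symbols at rank 0) and for the 3 nearest tested genes on each side in order of position (filled symbols), untreated, at day 2 and at day 5. Most filled symbols lie near 0 on the y axis, and Slc25a43, Lrriq3 and Tnni3k are named.

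Relatives and pathway partners of the members were drawn up as lists by known function, and 89 of their genes were tested. In untreated cells 16 were lower and 11 higher in P248L (18% and 12.4%, median log2 fold change -0.04). At day 2 it was 24 and 8 (27.0% and 8.99%, median -0.09) and at day 5 32 and 14 (36.0% and 15.7%, median -0.18), beside the shares and medians of all tested genes given above. With library size alone the day 5 counts were 24 and 16. Of the 89 only Arhgap5 was at 3 CPM or more in untreated wild-type and at 1/20 or less in untreated P248L. After IL-3 others were at 1/20 or less as well. At day 2 these included Avil (15.1 CPM in wild-type and 0.0824 in P248L) and Slc6a4 (5.61 and 0). At day 5 they included Scin (18.9 and 0.248) and Tph1 (10.7 and 0.0772).

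Arhgap5, a GTPase-activating protein, had 103, 72 and 112 reads in untreated wild-type libraries and 0, 1 and 0 in P248L, a 305-fold difference (54.3 to 12100), and wild-type was at least 84.1-fold and 157-fold higher at days 2 and 5. The other 11 genes of that list were read in both lines. Arhgap17 was lower in P248L untreated (-0.48 ± 0.09, adjusted p = 0.0012), Arhgap25 lower at day 5 (-0.51 ± 0.10) and Arhgap19 higher at day 5 (1.79 ± 0.19, adjusted p = 5.2e-07).

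In the villin and gelsolin family of Svil, Gsn (gelsolin), which severs actin filaments, was at 4.02 ± 1.05 CPM in wild-type and 0.527 ± 0.179 in P248L untreated and 571 and 812 at day 5. Its log2 fold change was -2.84 ± 0.26, -4.14 ± 0.21 and 0.51 ± 0.17 at the 3 times (adjusted p = 0.02 at day 5). Scin, a related severing protein, was lower in P248L untreated (-1.78 ± 0.44) and at day 5 (-6.18 ± 0.62), and Avil at day 2 and day 5, while Vil1 was higher at day 5 (1.0 ± 0.24). Of the 6 tested members of that list 2 were lower untreated and 4 at day 2, and at day 5 2 were lower and 2 higher. Over all tested genes the shares were 11.3%, 20.3%, 22.7% and 22.8% in the same order.

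Among monoamine genes, Maob, the sister enzyme of Maoa, had 9 reads in all 18 libraries, 8 of them in wild-type at day 5, so it was near 0 in both lines. Hdc, which makes histamine, was higher in untreated P248L (129 ± 13.3 CPM against 44.5 ± 4.90, log2 fold change 1.54 ± 0.25, adjusted p = 2.1e-04) and lower at day 5 (-1.39 ± 0.25). Slc22a3, a transporter of monoamines, was lower at day 5 (-2.66 ± 0.28), as were Slc6a4, the serotonin transporter (299 reads in wild-type and 20 in P248L, 15.5-fold, 9.87 to 25.8) and Tph1, the first enzyme of serotonin synthesis (529 reads and 5). Mast cells express Hdc, Tph1 and Slc6a4, and the mast cell marker sums given above differed in the same direction at day 5. Their part in these differences was not tested. Of the 7 tested genes of the list 1 differed untreated, 5 at day 2 and 6 at day 5, beside 21.7%, 35.8% and 45.5% of all tested genes.

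Of the 15 tested prostaglandin genes 4 were lower and 4 higher untreated, beside 11.3% and 10.3% of all tested genes. Tbxas1, thromboxane synthase, was at 35.6 ± 1.23 and 8.03 ± 1.71 CPM (log2 fold change -2.16 ± 0.15, adjusted p = 6.0e-09) and less different at day 5 (-0.48 ± 0.14). Ptger2, a receptor of prostaglandin E2, was lower untreated (-1.28 ± 0.15) and did not pass at day 5 (0.29 ± 0.14, adjusted p = 0.096). Ptger4, another such receptor, had 19 reads in wild-type and 0 in P248L untreated and 74 and 2 at day 5, and Ptges, a prostaglandin E synthase, was higher in P248L at day 5 (1.51 ± 0.23).

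The other genes of molybdenum cofactor synthesis did not follow Gphn. Mocs1 and Mocs2, which make the early intermediates, were at 22.5 ± 1.51 and 24.3 ± 0.106 CPM in wild-type and 21.8 ± 5.56 and 25.2 ± 1.98 in P248L untreated cells. Xdh, xanthine dehydrogenase, an enzyme that carries the cofactor, was at 1.39, 1.39 and 1.33 CPM in the untreated wild-type libraries and at 19.9, 35.0 and 38.6 in those of P248L (log2 fold change 4.50 ± 0.24, adjusted p = 2.9e-10). At day 2 Xdh did not pass the test (0.30 ± 0.19, adjusted p = 0.25), and at day 5 P248L was higher (1.21 ± 0.19). Suox, sulfite oxidase, and Mocs3 were lower at day 5 (-1.13 ± 0.19 and -1.13 ± 0.28), and Aox1, aldehyde oxidase, had 3 reads in wild-type and 66 in P248L at day 5.

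In the fucose list 4 of 12 genes were lower untreated and 7 at day 5, when 2 were higher. Of all tested genes 11.3% were lower untreated, and at day 5 22.7% were lower and 22.8% higher. Fut4, a fucosyltransferase of leukocytes, had 22, 25 and 20 reads in untreated wild-type libraries and 0 in all P248L libraries, at least 23.7-fold higher in wild-type untreated, 4.24-fold at day 2 and 5.88-fold at day 5. It was below 3 CPM and so outside the 84 genes. Gmds makes the first step from GDP-mannose towards GDP-fucose, on the route that does not need Fpgt. It was at 25.7 ± 2.46 and 31.6 ± 10.1 CPM untreated and was higher in P248L at day 5 (1.0 ± 0.19, adjusted p = 2.7e-04). Pofut1, which adds fucose to Notch, was lower at day 5 (-0.74 ± 0.14).

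The 15 twin CX9C and MICOS genes related to Chchd10 were read in both lines. Untreated 2 were higher and at day 5 1 was lower, beside 10.3% and 22.7% of all tested genes. Chchd2, the closest relative, was at 43.9 ± 4.50 and 76.1 ± 41.8 CPM untreated (0.79 ± 0.26, adjusted p = 0.035), with a wide spread in P248L. Chchd4, of the import machinery of the intermembrane space, was also higher (0.51 ± 0.17, adjusted p = 0.038), and Chchd6 was lower at day 5 (-1.32 ± 0.33). Of 11 tested RBR ubiquitin ligases related to Rnf217, 6 were lower at day 5, beside 22.7% of all tested genes. Rnf144b was lower (-3.27 ± 0.44), Rnf19b lower (-0.71 ± 0.13) and Rnf216 lower both untreated and at day 5 (-0.42 ± 0.10 and -0.37 ± 0.10), while Rnf144a was higher untreated (1.64 ± 0.21, adjusted p = 2.1e-05). Lonrf1, the relative of Lonrf3, did not pass the test (0.11 ± 0.14 untreated and 0.06 ± 0.14 at day 5). The mitochondrial and peroxisomal LON proteases Lonp1 and Lonp2 were higher (0.92 ± 0.13) and lower (-0.65 ± 0.10) at day 5.

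**Figure D4:**
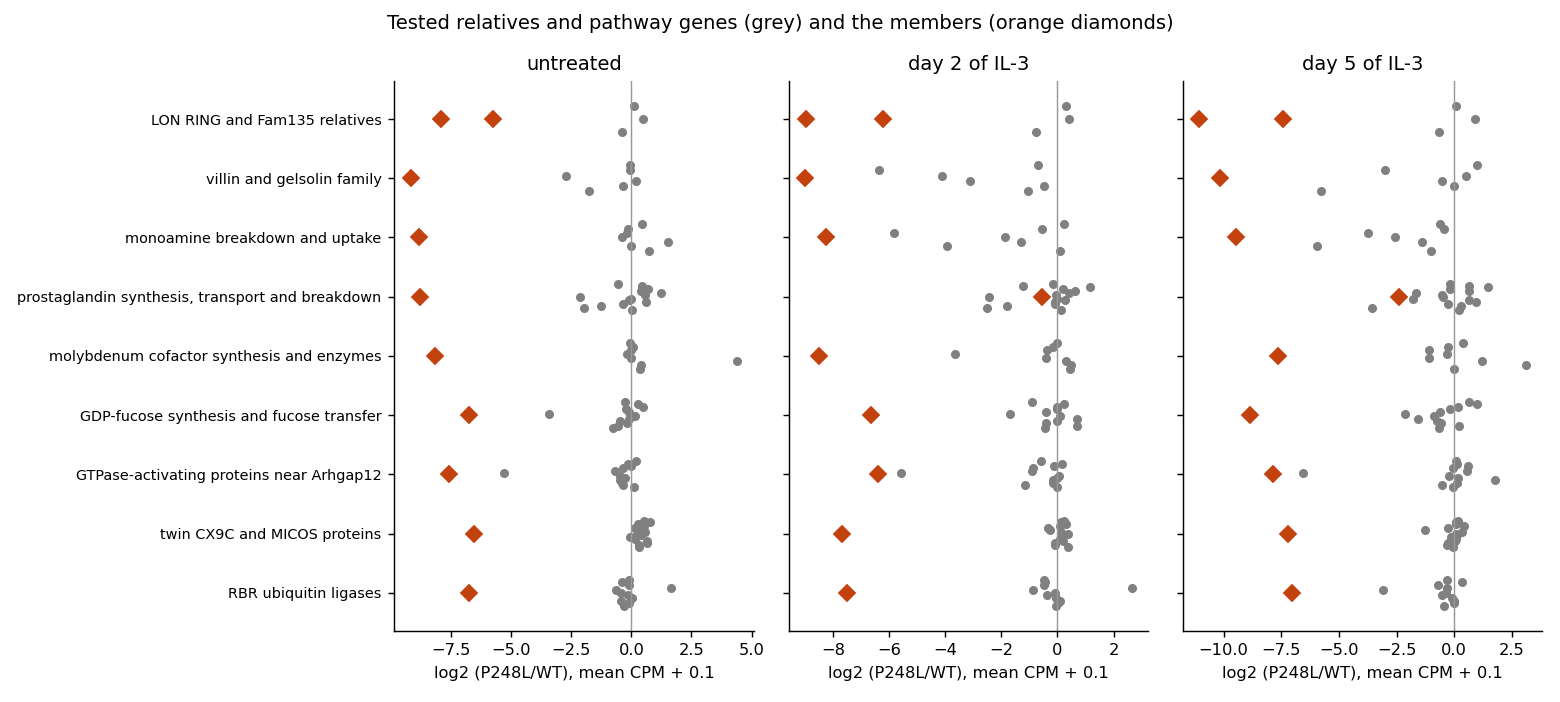
The log2 ratio of P248L to wild-type mean CPM (plus 0.1) for the 89 tested relatives and pathway genes (grey points, by list) and the members (orange diamonds), untreated, at day 2 and at day 5. The diamonds lie far left of most grey points at each time, except for Hpgd after IL-3, and the far left point of the GTPase-activating list is Arhgap5.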

How the data were processed

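The authors sequenced total RNA and deposited 1 file per library, which holds raw read counts per gene for both strands and for each strand (per the file's columns and values). Per the submitters' processing notes, STAR and mm10 were used. Versions, annotation and the kit's strand marking were not given in the sources used here. Of the reads in genes, 1.17 to 2.54% were on the minor strand, and the major strand was analysed. Libraries were grouped by the labels, 3 in each of 6 groups.

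Counts were filtered (filterByExpr, minimum count 10, which left 11942 genes), scaled by TMM factors and tested by edgeR 4.0.16 (quasi-likelihood F test, R 4.3.3) with 1 mean per group over 18 libraries. A call is a Benjamini-Hochberg adjusted p under 0.05. The common coefficient of variation was 0.17. Levels are CPM after TMM scaling. The SE of a log2 fold change is its absolute value divided by the square root of edgeR's F. It can understate the error where a group has few reads. Against a group without reads, a fold is a lower bound, with 3 reads put in for the whole group. With 1 to 3 reads it is a ratio with an exact counting interval at 0.95. In both cases the adjusted p is still edgeR's.

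The members, the gene lists, the rules and the tests were chosen with earlier results of these data known. Named genes were all members, the 10 others of the untreated pattern with the highest wild-type level (1 of which is not reported here), the 5 most like the members, up to 4 per list by smallest adjusted p, neighbours called at both times or nearest, and Xist with the Y genes. Pgrmc1, Akap17b, Zfp438, Tmem159, Cpped1, Mtus2, Mocs1 and Mocs2 were named after their values were seen. Alternatives were DESeq2 1.42.0, limma-voom (limma 3.58.1), other scalings and filters, fewer groups, the replicate number as a block, both strands, a stricter p and each library left out. On simulated counts of 11577 to 11584 genes, 86 to 93% of 2-fold changes were called in the 4 comparisons of groups and 42% in the difference of changes. False calls made up 2.01 to 6.43% of calls. The simulation gave each gene its mean level over all groups and 1 common spread, and changed only genes above 1 CPM. These shares therefore do not hold for changes of the members within P248L, where their reads were few. Positions came from RefSeq on GRCm38.p6 and strands from GENCODE M21.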

Additional observations from a re-analysis of the deposited data

Results flagged for a closer look

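Reads on the strand opposite to Svil, outside the counts used for the comparisons, numbered 66 over the 3 P248L day 5 libraries (29, 21 and 16), where the P248L untreated and day 2 libraries had 0 and the gene's own strand had 1. Wild-type libraries held 33, 27 and 87 such reads untreated, at day 2 and at day 5, beside 4375, 5093 and 6496 reads of the gene's own strand. What these reads come from was not tested.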

How the results depend on the processing

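Under 31 other settings, 18 of which left out 1 library, all 10 members kept the direction of their log2 fold change between the lines at day 2 and day 5 and between days in wild-type cells, in every fit that tested them. At day 2, 9 members were lower in P248L under all 31. At day 5 it was 10, or 9 where only the groups compared were fitted or the untreated libraries were left out, since Hpgd was then too low to be tested. Members other than Hpgd had 0 to 5 P248L reads per group beside far more in wild-type. Their calls were therefore hardly open to change by a setting and lend no further support. The number of all tested genes called at day 2 ranged from 2890 to 5081. Between days in wild-type cells 3 members fell, but 1 with DESeq2's size factors and 1 at an adjusted p under 0.01, and 1 to 3 with a library left out. Between days in P248L, counts of both strands gave 1 higher member (Svil), and leaving out a library gave 0 to 1 lower. The difference of changes gave 2 lower members with limma-voom, 1 higher with both strands and 0 to 1 lower with a library left out. Over all genes that difference was called for 3208, and for 2111 at an adjusted p under 0.01 because the threshold is stricter. For the other moves the cause was not tested. Samples of the same replicate number correlated by -0.08 to 0.18 in their deviations from the group means, so the number was not taken as a pairing. With the number as a replicate block 9 and 10 members were lower in P248L at days 2 and 5, and 7 rose and 3 fell in wild-type cells, as without it. Depth limits any statement on changes within P248L, where a member had 0 to 5 reads per group and the counts of calls say nothing about stability.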
